A study of Mus musculus with 6 samples.

Results

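The cholesterol synthesis genes described here are 7 mouse genes taken by name, *Hmgcs1*, *Idi1*, *Fdps*, *Fdft1*, *Sqle*, *Cyp51* and *Srebf2*, of the 31053 genes in the count table. They were named by their place in the pathway, although earlier results of these data were known when they were chosen. Of these 7 genes, 5 passed the filter on low counts and were tested among 10889 genes. The other 2, *Idi1* and *Fdft1*, did not pass it and are described by their counts. None of the 7 is a gene of cholesterol uptake, so genes of uptake were taken from a separate list.

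The study compared the cerebellum of WT and KIKO mice by bulk RNA sequencing. KIKO (knock-in knock-out) mice are a model of Friedreich's ataxia, and the WT animals were C57BL/6 littermates. The study's text describes CD45+/CD11b+ cells sorted with magnetic beads from the cerebellum of 6-mo-old mice, whereas the sample labels name the cerebellum and the genotype and give no sorting, age or sex. There were 2 WT and 3 KIKO libraries. A WT sample numbered 3 has no column in the count table and was not analysed here. For its comparison of sorted cells, the study gives more mice per group than the libraries used here. No treatment is named in the labels of these samples. Other columns of the count table, whose names add butyrate to KIKO, match no label and were not used.

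Cells make cholesterol from acetyl-CoA. The enzyme of *Hmgcs1* joins acetyl units to HMG-CoA, from which mevalonate and then isoprenoids are made. *Idi1* and *Fdps* act on these isoprenoids, *Fdft1* joins farnesyl units to squalene, and *Sqle* and *Cyp51* act in the sterol part of the pathway. *Srebf2* encodes SREBP2, the membrane-bound transcription factor that is released when sterols are low and raises the transcription of these enzymes. In the adult brain, cholesterol is made locally because lipoproteins of the blood do not cross the blood-brain barrier, and oligodendrocytes and astrocytes are its main producers.

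The libraries held between 1013107 and 1351339 counts. KIKO replicate 2 stood apart from the other libraries, with correlations of log2 CPM across genes, which are not independent replicates, of 0.672 to 0.747, while the remaining 4 correlated at 0.884 to 0.931. The summed level of 8 microglial markers was 3939 and 5023 normalized CPM (counts relative to the scaled library size) in WT and between 3331 and 9676 in KIKO libraries, with *Csf1r* the most abundant and all 8 detected in every library. Other cells of the cerebellum were represented as well. The 8 oligodendrocyte markers summed to 5327 and 12120 in WT and to between 4752 and 19300 in KIKO libraries, the highest in KIKO replicate 2. The 8 astrocyte markers, led by *Slc1a3*, summed to 280.9 and 508.2 in WT and to between 434.3 and 514.6 in KIKO libraries, with 6 of the 8 detected in every library. *Gfap*, a marker of reactive astrocytes, was the 1 marker of all lists past the thresholds of the study (log2 fold change 1.33, edgeR's test, adjusted p = 1). Of all genes tested, 1.20% passed these thresholds, which are defined below. The 8 neuronal markers, led by *Rbfox3*, summed to between 2035 and 4107 over all libraries, the 6 choroid plexus markers, led by *Ttr*, to between 7879 and 15610, and the 6 endothelial and mural markers, led by *Flt1*, to between 486.1 and 904.8. The 5 neutrophil and monocyte markers, led by *S100a9*, summed to between 16.93 and 99.37, with 2 of the 5 detected in every library and *Ly6c2* at 0 counts in all libraries. The WT and KIKO libraries overlapped in the summed level of each of these 7 marker lists. The part of these mixtures in the values below was not tested, and a smaller number of cells of a type and less RNA in each cell cannot be told apart.

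Promoter sequences were found in RefSeq (build GRCm38.p6) for 4 of the 7 genes, *Hmgcs1*, *Idi1*, *Cyp51* and *Srebf2*. They were not found for *Fdps*, *Fdft1* and *Sqle*. The 250 bases before the start site are shown for the most abundant gene (*Hmgcs1*), for the regulator (*Srebf2*) and for *Cyp51*. *Cyp51* was taken as an enzyme gene without a match to TCACNCCA, the only form of the sterol element searched. The *Hmgcs1* window is chr13:119690101-119690350 on the plus strand, that of *Srebf2* is chr15:82147019-82147268 on the plus strand, and that of *Cyp51* is chr5:4104698-4104947 on the minus strand. These windows follow RefSeq, whereas the gene positions given below follow the GENCODE annotation. By the GENCODE positions, the windows of *Srebf2*, *Cyp51* and *Idi1* reach into the genes. Capitals mark matches to TCACNCCA, the core of the sterol regulatory element, and to CCAAT, the box bound by NF-Y, each searched on both strands, so that a CCAAT match on the other strand reads ATTGG.
Hmgcs1: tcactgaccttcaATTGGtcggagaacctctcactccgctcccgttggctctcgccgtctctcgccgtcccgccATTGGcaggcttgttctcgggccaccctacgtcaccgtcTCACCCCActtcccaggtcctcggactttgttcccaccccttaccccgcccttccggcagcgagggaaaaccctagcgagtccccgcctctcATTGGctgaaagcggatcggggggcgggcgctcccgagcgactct
Srebf2: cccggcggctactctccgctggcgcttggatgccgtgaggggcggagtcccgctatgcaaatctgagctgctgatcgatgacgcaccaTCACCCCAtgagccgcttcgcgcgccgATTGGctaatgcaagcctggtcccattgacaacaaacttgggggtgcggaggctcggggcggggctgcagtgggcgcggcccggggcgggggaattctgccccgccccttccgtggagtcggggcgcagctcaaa
Cyp51: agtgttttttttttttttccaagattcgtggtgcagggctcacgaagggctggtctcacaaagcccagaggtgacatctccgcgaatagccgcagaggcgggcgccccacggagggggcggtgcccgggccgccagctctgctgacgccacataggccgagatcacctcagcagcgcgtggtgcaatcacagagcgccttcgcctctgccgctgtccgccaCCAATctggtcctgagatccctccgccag
The sterol element core occurred in *Hmgcs1*, beginning 137 bases before the start site (−137), and in *Srebf2* (−162), and in 3.67% of the 32851 promoters of the same length. It was not found in the windows of *Idi1* and *Cyp51*, where other forms of the sterol element were not searched for. A CCAAT box occurred in all 4 windows, with 3 matches in *Hmgcs1*, 2 in *Idi1* and 1 each in *Cyp51* and *Srebf2*, compared with at least 1 match in 33.8% of all promoters. In *Srebf2*, the CCAAT box (−135) lay closest to the sterol element. GC boxes (GGGCGG, both strands, not marked) were found in 4 of 4 windows, with 4 matches in *Srebf2*, and in 32.7% of all promoters. No E-box (CACGTG) was found in the 4 windows, compared with 6.02% of all promoters. These matches describe letters and not bound sites.

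None of the 5 genes tested passed the thresholds of the study, a log2 fold change beyond 0.75 in either direction with p under 0.05 before adjustment. By edgeR's quasi-likelihood test, 1.20% of all genes tested passed them, 0.716% higher and 0.487% lower in KIKO. None had an adjusted p under 0.05, as was the case for 0 of all 10889 genes, of which 131 had an unadjusted p under 0.05 and for which DESeq2's Wald test also gave 0. The adjusted p was 1 for each of the 5 genes. Of the 5, 2 had a log2 fold change above 0 and 3 below 0. Their median was −0.24, compared with 0.022 over all genes tested. The point estimates furthest from 0 were those of *Srebf2*, which was lower in each KIKO library than in both WT libraries, and of *Sqle*, which was higher in each KIKO library. The smallest unadjusted p of the 5 was 0.0844, that of *Srebf2*.

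**Figure D1:**
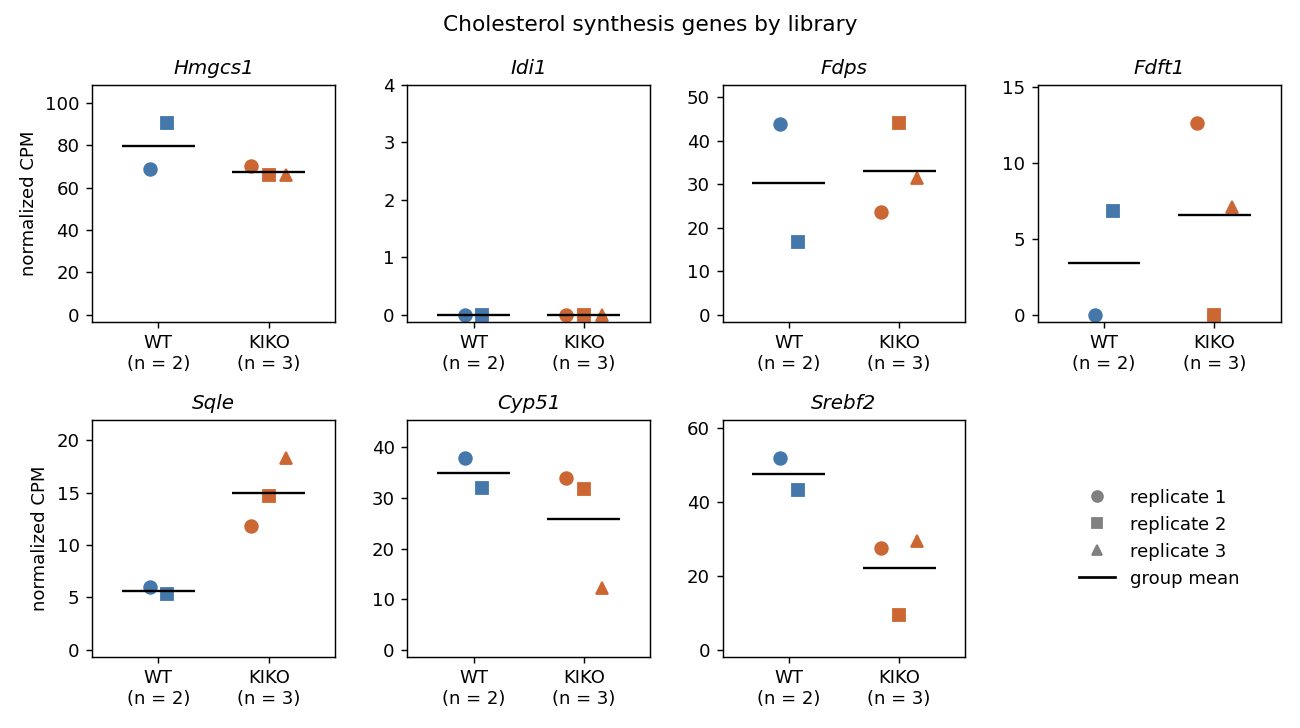
Normalized CPM of the 7 cholesterol synthesis genes (vertical axes, a separate scale for each gene) in the WT (blue) and KIKO (orange) libraries, with 1 symbol per replicate number and a line at the group mean. The WT and KIKO libraries do not overlap for *Sqle* and *Srebf2*, and *Idi1* is at 0 in all 5 libraries.

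*Srebf2* (chromosome 15, 82147181 to 82205379, GRCm38), the gene of SREBP2, had 52 and 57 counts in the WT libraries and 35, 12 and 29 in the KIKO libraries. These correspond to 51.8 and 43.2 normalized CPM in WT replicates 1 and 2 and to 27.6, 9.27 and 29.4 in KIKO replicates 1, 2 and 3. All KIKO values lay below both WT values, and the lowest was that of KIKO replicate 2. The mean of the WT libraries was 47.5 ± 6.06 normalized CPM (SD, n = 2) and that of the KIKO libraries 22.1 ± 11.1 (SD, n = 3). The log2 fold change was −1.11 (standard error 0.57, 95% interval −2.40 to 0.19, edgeR's quasi-likelihood test, adjusted p = 1). Without KIKO replicate 2, it was −0.74 (adjusted p = 0.64 in edgeR's test on 2 WT and 2 KIKO libraries). Leaving out any other library gave values from −1.36 to −0.97. The groups of *Srebf2* did not overlap, as for 16.7% of all genes tested, and all KIKO libraries lay below all WT libraries in 8.51% of them.

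An intron of *Srebf2* holds *Mir33*, a microRNA known to repress *Abca1*, the cholesterol exporter. The mature miR-33-5p lies at chr15:82198127-82198147 on the plus strand, outside the exons of *Srebf2*. It is shown with its seed (bases 2 to 8) in capitals because it is made from the transcript whose level is given above.
mmu-miR-33-5p: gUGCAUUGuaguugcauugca
No value is given for the mature microRNA. *Abca1* had 20.9 and 55.4 normalized CPM in the WT libraries and 61.5, 86.5 and 32.5 in the KIKO libraries. These groups overlapped, and the log2 fold change was 0.65 (standard error 0.58, edgeR's test, adjusted p = 1).

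*Sqle* (chromosome 15, 59315077 to 59331192), which encodes squalene epoxidase, a rate-limiting step of the sterol arm, had 6 and 7 counts in the WT libraries and 15, 19 and 18 in the KIKO libraries. The normalized CPM were 5.98 and 5.31 in WT replicates 1 and 2 and 11.8, 14.7 and 18.3 in KIKO replicates 1, 2 and 3. Every KIKO value was above both WT values, as in 8.20% of all genes tested. The mean of the WT libraries was 5.64 ± 0.472 (SD, n = 2) and that of the KIKO libraries 14.9 ± 3.23 (SD, n = 3), and the log2 fold change was 1.39 (standard error 0.73, 95% interval −0.29 to 3.06, edgeR's test, adjusted p = 1). The counts behind these values were low. The exact Poisson 95% interval, which covers counting error only, ran from 2.19 to 13.0 normalized CPM in WT replicate 1. In WT replicate 2 it ran from 2.13 to 10.9. Both WT intervals overlapped those of KIKO replicates 1 (6.62 to 19.5), 2 (8.84 to 22.9) and 3 (10.8 to 28.9). Overlap between intervals of single libraries is not a test of the difference between the groups. Without KIKO replicate 2, the log2 fold change was 1.39 as well (adjusted p = 0.649), and without any other library it was between 1.22 and 1.53. The 95% interval of the difference in *Sqle* between the groups, by edgeR, included 0.

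*Hmgcs1* (chromosome 13, 119690379 to 119708260), the cytosolic HMG-CoA synthase, was the gene of the set with the steadiest level. It had 69 and 119 counts in the WT libraries and 89, 85 and 65 in the KIKO libraries. The normalized CPM were 68.7 and 90.3 in WT replicates 1 and 2 and 70.2, 65.7 and 66.0 in KIKO replicates 1, 2 and 3. The WT value of replicate 1 lay within the KIKO range, and the highest library was 1.37-fold above the lowest. The mean of the WT libraries was 79.5 ± 15.2 (SD, n = 2) and that of the KIKO libraries 67.3 ± 2.53 (SD, n = 3). The log2 fold change of −0.24 (standard error 0.36) had a 95% interval from −1.07 to 0.58 (edgeR's test, adjusted p = 1).

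*Fdps* (chromosome 3, 89093588 to 89101959), which makes farnesyl diphosphate, had 44 and 22 counts in WT and 30, 57 and 31 in KIKO libraries. Its normalized CPM were 43.8 and 16.7 in the WT libraries and 23.7, 44.0 and 31.5 in the KIKO libraries. The difference between the WT libraries was wider than the KIKO range, and the groups overlapped. The mean of the WT libraries was 30.3 ± 19.2 (SD, n = 2) and that of the KIKO libraries 33.1 ± 10.3 (SD, n = 3), and the log2 fold change was 0.14 (standard error 0.57, 95% interval −1.16 to 1.44, edgeR's test, adjusted p = 1). It was −0.12 without KIKO replicate 2 and −0.42 without WT replicate 2, so *Fdps* had no stable direction.

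*Cyp51* (chromosome 5, 4081145 to 4104746), the lanosterol demethylase, had 38 and 42 counts in the WT libraries and 43, 41 and 12 in the KIKO libraries. The normalized CPM were 37.9 and 31.9 in WT and 33.9, 31.7 and 12.2 in KIKO replicates 1, 2 and 3. KIKO replicates 1 and 2 lay at the level of WT replicate 2, and replicate 3 alone was low. The mean of the WT libraries was 34.9 ± 4.24 (SD, n = 2) and that of the KIKO libraries 25.9 ± 12 (SD, n = 3), and the log2 fold change was −0.42 (standard error 0.55, 95% interval −1.68 to 0.85, edgeR's test, adjusted p = 1). Without KIKO replicate 3 it was −0.086 (adjusted p = 1).

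*Fdft1* (chromosome 14, 63145150 to 63179578), squalene synthase, was seen in 3 of the 5 libraries. It had 0 and 9 counts in WT replicates 1 and 2 and 16, 0 and 7 in KIKO replicates 1, 2 and 3, or 0, 6.83, 12.6, 0 and 7.10 normalized CPM. Each genotype held a library at 0 counts. The 0 counts of KIKO replicate 2 allow a level of up to 2.32 normalized CPM by a limit of 3 counts, and those of WT replicate 1 up to 2.99. This limit is one-sided and covers counting error only, and the upper ends of the two-sided exact Poisson 95% intervals were 2.85 and 3.67. With all genes of at least 1 count tested, its log2 fold change was 0.87 (edgeR's test, adjusted p = 1). *Fdft1* passed the filter on low counts when a WT library was left out, and the log2 fold change was then −0.054 without WT replicate 1 and 5.93 without WT replicate 2 (adjusted p = 1 for both), so each value rested on 1 WT library. The value of 5.93 stands against a WT library at 0 counts and depends on the prior count of the fit.

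*Idi1* (chromosome 13, 8885501 to 8892451), which isomerizes isopentenyl diphosphate, had 0 counts in all 5 libraries. The limit of 3 counts corresponds to between 2.28 and 3.04 normalized CPM per library and covers counting error only. Whether the 0 counts reflect the level of the transcript or the way its reads were counted was not tested. *Idi2*, its neighbouring paralog, also had 0 counts in all 5 libraries. The enzymes just before and after *Idi1* were detected, *Mvd* (mevalonate diphosphate decarboxylase) with between 11 and 24 counts and *Fdps* with between 22 and 57 counts per library.

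**Figure D2:**
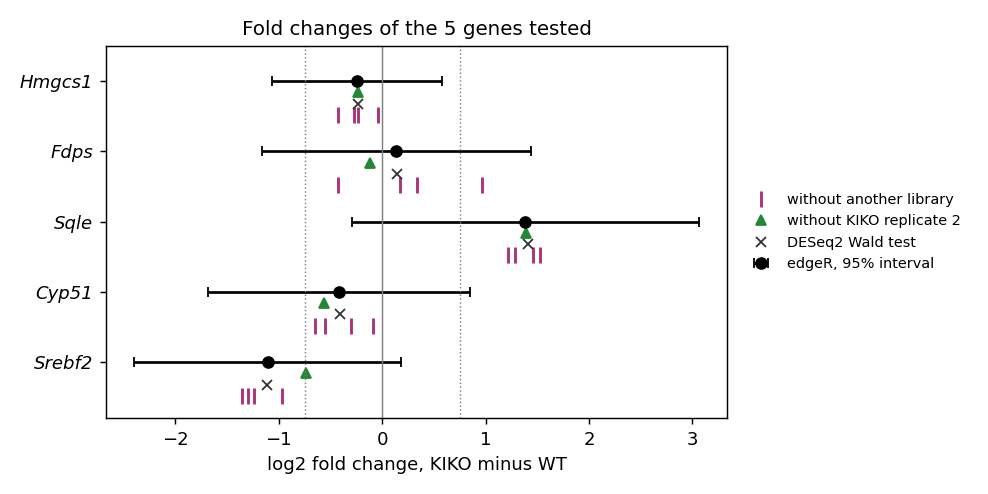
Log2 fold change (KIKO minus WT, horizontal axis) of the 5 genes tested, with the edgeR estimate and its 95% interval in black, the values without KIKO replicate 2, with DESeq2 and without each other library below it, and dotted lines at 0.75 in either direction. All 5 intervals include 0, and the values of *Sqle* and *Srebf2* lie on the same side of 0 in each fit shown.

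Per kilobase of exons, the mean level over the 5 libraries was 15.7 normalized CPM for *Hmgcs1*, 7.59 for *Fdps*, 6.68 for *Cyp51*, 4.49 for *Srebf2*, 2.02 for *Sqle*, 1.26 for *Fdft1* and 0 for *Idi1*. This scale assumes reads along the whole transcript, and the protocols named in the labels and in the study differ. *Hmgcs1*, between 14.3 and 19.6 per kilobase, was above the highest library of *Fdps* (10.5). Below it, each gene overlapped its next neighbour in this order, *Fdps* (3.97 to 10.5) with *Cyp51* (2.76 to 8.57), *Cyp51* with *Srebf2* (1.29 to 7.21), *Srebf2* with *Sqle* (0.957 to 3.29) and *Sqle* with *Fdft1* (0 to 2.99), so these neighbours did not differ beyond the spread between libraries. The ranges of *Fdps* and *Sqle*, which are not neighbours, did not overlap. The 7 genes together had between 162 and 256 counts per library. Their summed level was 208.2 and 194.2 normalized CPM in WT replicates 1 and 2 and 179.8, 165.4 and 164.4 in KIKO replicates 1, 2 and 3, with *Hmgcs1* the largest part.

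Several of the 7 genes share exon positions with another gene, and the strand setting of the counting is not given in the sources used here. *Fdft1* shares 774 exon bases (18.3% of its exon length) with *Ctsb*, a lysosomal protease gene on the other strand, which had between 493 and 1785 counts. *Cyp51* shares 166 bases (3.76%) with *Akap9* on the other strand, which had 1053 and 1155 counts in WT and 982, 59 and 723 in KIKO libraries. Both overlaps lie at the 3' ends of the genes, and the share of exon length need not be the share of reads. *Fdps* shares 1124 bases (26.7%) with the read-through gene model *Gm43738* and *Hmgcs1* shares 557 bases (12.1%) with the antisense gene *Gm48342*, both of which had 0 counts in all libraries. *Idi1* shares 323 bases (9.22%) with *Gm48574*. *Sqle* and *Srebf2* share no exon positions with another annotated gene. The values of *Fdps*, *Fdft1*, *Cyp51*, *Hmgcs1* and *Idi1* are uncertain to the extent that reads at shared positions were left out or assigned to the other gene, which for *Fdps*, on the strand of *Gm43738*, does not depend on the strand setting, and the part of these overlaps in their counts was not tested.

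The rest of the pathway was described from 5 lists of 50 further genes, of which 45 passed the filter on low counts. Of the 45, 0 passed the thresholds in either direction in edgeR's test (1.20% of all genes tested), 0 had an unadjusted p under 0.05, and the smallest p was 0.154. DESeq2's Wald test also gave 0. The log2 fold change was above 0 in 29 and below 0 in 16 genes, with a median of 0.11, compared with 0.022 over all genes tested.

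In the mevalonate and isoprenoid list, 6 of 7 genes were tested, 4 with a log2 fold change above 0 and 2 below 0, with a median of 0.34. *Ggps1*, which leads isoprenoids to protein prenylation, averaged 98.2 ± 9.06 normalized CPM (SD, n = 2) over WT and 112 ± 27.9 (SD, n = 3) over KIKO libraries, and it shares 257 exon bases with *Arid4b*. *Mvk*, mevalonate kinase, which was named after its values were seen, had 1 and 35 counts in the WT libraries and 5, 4 and 9 in the KIKO libraries, so 1 WT library alone was high. In the sterol list, 10 of 11 genes were tested, 6 above 0 and 4 below 0, with a median of 0.032. *Msmo1*, a sterol methyl oxidase, had 55.8 and 56.1 normalized CPM in WT and 44.2, 50.2 and 52.8 in KIKO libraries. All KIKO values were below both WT values, by a log2 fold change of −0.19 (edgeR's test, standard error 0.38, adjusted p = 1). *Lbr*, a sterol reductase of the nuclear envelope, averaged 39.6 ± 13.7 (SD, n = 2) over WT and 46.6 ± 22.6 (SD, n = 3) over KIKO libraries.

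Among the 6 genes that control SREBP processing, all of them tested, 5 had a log2 fold change above 0 and 1 below 0, with a median of 0.29. *Mbtps1*, the site-1 protease that cuts SREBP, had 77.7 and 97.8 normalized CPM in the WT libraries and 72.6, 138 and 72.0 in the KIKO libraries. *Scap*, the sterol sensor that escorts SREBP to the Golgi, had 65.7 and 58.4 in WT and 63.9, 148 and 47.7 in KIKO libraries. In both genes, KIKO replicate 2 was the highest library and the other KIKO libraries lay within or below the WT range. The log2 fold changes were 0.10 (standard error 0.43, adjusted p = 1) and 0.49 (standard error 0.53, adjusted p = 1). KIKO replicate 2 was the highest library in 5 of the 6 genes and the lowest in the other, compared with the highest in 33.9% and the lowest in 37.1% of all genes tested. For the enzymes, *Srebf2* excluded, it was the highest in 6 and the lowest in 6 of the 20 genes tested. *Srebf2* itself was lowest in KIKO replicate 2, whereas *Sqle* was highest in KIKO replicate 3.

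In the list of uptake and lysosomal release, 13 of 14 genes were tested, 8 above 0 and 5 below 0, with a median log2 fold change of 0.12. *Lrp1*, a receptor of lipoproteins, averaged 283 ± 19.5 normalized CPM (SD, n = 2) over WT and 308 ± 67.8 (SD, n = 3) over KIKO libraries. *Npc2*, which carries cholesterol out of the lysosome, had 263 and 274 normalized CPM in WT and 314, 454 and 290 in KIKO libraries, and *Npc1*, its partner in the lysosomal membrane, had 75.7 and 73.6 in WT and 110, 81.1 and 102 in KIKO libraries. In both, all KIKO libraries lay above both WT libraries, as in 8.20% of all genes tested. The log2 fold changes were 0.40 (standard error 0.38, adjusted p = 1) and 0.39 (standard error 0.36, adjusted p = 1). *Npc1* and, as an enzyme beside *Idi1*, *Mvd* were named after their values were seen.

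**Figure D3:**
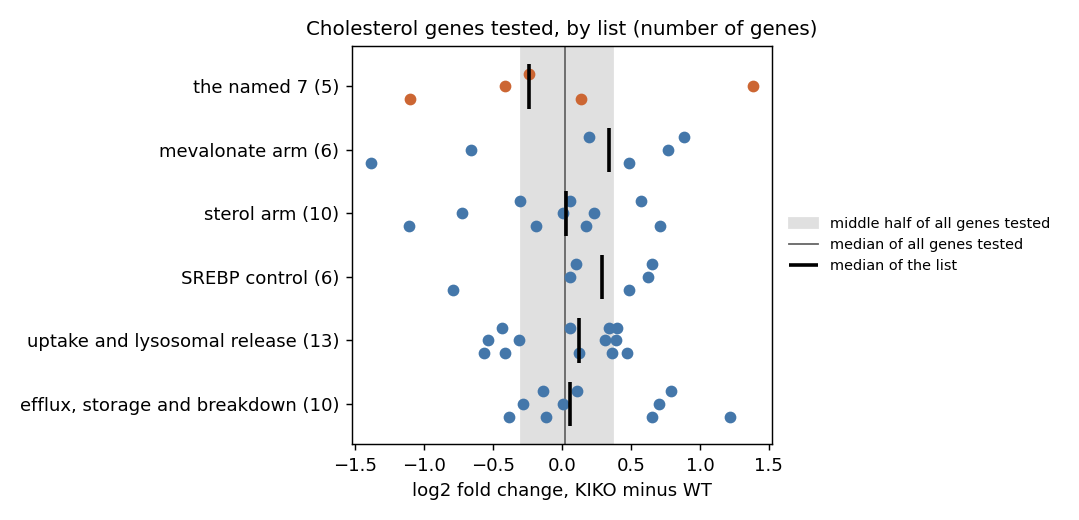
Log2 fold change (KIKO minus WT, horizontal axis) of each cholesterol gene tested (points), by list with the number of genes in brackets, with a black bar at the median of the list. The grey band runs from the lower to the upper quartile of all 10889 genes tested (−0.30 to 0.37), as a scale for single genes. The median of the named genes is −0.24 and those of the other 5 lists are between 0.032 and 0.34.

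The mean profile of the 5 tested genes (log2(normalized CPM + 1) minus the mean of each gene) was 0.22 and −0.099 in WT replicates 1 and 2 and 0.022, −0.08 and −0.063 in KIKO replicates 1, 2 and 3. Its spread between the WT libraries was wider than its difference between the groups. The mean joins genes with opposite directions, such as *Sqle* (log2 fold change 1.39) and *Srebf2* (−1.11). A gene near this mean need not follow any single gene of the 5. Of the 10795 genes outside the lists, the nearest profiles over the 5 libraries included those of *Ncam1* and *Psme4*, with root mean square differences of 0.0257 and 0.0305, compared with a median of 0.53.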

How the data were processed

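The members and lists were chosen with earlier results of these data known. Reads were trimmed (Trimmomatic), mapped to mm10 (HISAT2) and summed per gene (featureCounts) by the authors. The annotation and strand setting are not given in the sources used here. The deposited values are whole-number counts per gene, without normalization. A table of log2 values normalized by the authors with DESeq2, and the 2 further columns of each table that match no sample label, were not used.

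The software was edgeR 4.0.16 under R 4.3.3. Low genes were removed with filterByExpr (minimum count 10, minimum total 15), libraries were scaled by TMM, and KIKO was compared with WT by the two-sided quasi-likelihood test, with Benjamini-Hochberg adjustment over 10889 genes. The 95% intervals use the F distribution's degrees of freedom. Normalized CPM are counts relative to the TMM-scaled library size. Exon positions came from GENCODE M21 (GRCm38). Nothing says that the libraries came from separate mice in the labels, so p-values measure the spread between these libraries.

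Genes were named by rule: all 7 members, pathway genes past the thresholds, the 2 most abundant genes of each pathway list, the most abundant marker of each cell type, markers at 0 counts throughout and the 3 genes nearest in profile. Some results are not reported here. Alternatives were DESeq2 1.42.0, RLE factors, library size alone, 2 other filters, the replicate number as a block and leaving out each library.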

Additional observations from a re-analysis of the deposited data

How the results depend on the processing

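No member past the thresholds was found in any alternative but the fit with the replicate block, in which 1 member, *Srebf2*, passed with a log2 fold change of −1.52 (edgeR's test, adjusted p = 0.989). The labels share numbers between the genotypes, and nothing else pairs the libraries. KIKO replicate 3 had no WT library of its number, so it added nothing to the difference between genotypes in the fit with the block. Deviations from the group means correlated across genes with r = 0.18 and 0.239 for same-numbered libraries and with r from −0.239 to 0.218 for the others, which are not independent. With this block, 271 of 10889 genes tested passed, and with all genes of at least 1 count 383 of 16822, compared with 131 of 10889. Leaving out each library gave from 56 genes (without WT replicate 1, where 1 WT library is left and is assumed to vary like the KIKO libraries) to 669 (without KIKO replicate 2, with 305 higher and 364 lower), 0 members in each case and 0 to 1 pathway genes, *Abcg4* without WT replicate 2 and *Lrp8* without KIKO replicate 2. The median log2 fold change of the members was between −0.33 and −0.062 in all alternatives, and from −0.27 to −0.086 when each library was left out. The share of higher genes among those past the thresholds was 59.5% in the TMM fit, 68.6% where libraries were scaled by total counts only and 70.6% by DESeq2. *Fdps* went from 0.14 to −0.42 without WT replicate 2, to −0.12 without KIKO replicate 2 and to 0.97 without WT replicate 1. What causes these shifts was not tested. *Sqle* and *Fdft1* had under 20 counts in each library, and *Idi1* had 0 counts, the cause of which was not tested. With at least 10 counts required in every library, *Sqle* was not tested. An adjusted p under 0.05 was found for 5 genes without KIKO replicate 2, for 1 with all genes of at least 1 count and for 0 in the other fits.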

Other observations

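The genes of cholesterol efflux, storage and breakdown showed no change past the thresholds either. Of 12 genes, 10 were tested, 6 with a log2 fold change above 0 and 4 below 0, with a median of 0.058. *Apoe*, the main apolipoprotein of the brain, was the most abundant of them, with 1550 and 1810 normalized CPM in WT and 1200, 1360 and 1300 in KIKO libraries. All KIKO libraries lay below both WT libraries, as in 8.51% of all genes tested, and the log2 fold change was −0.39 (standard error 0.39, edgeR's test, adjusted p = 1). *Osbp*, an oxysterol-binding protein, had 4 and 12 counts in WT and 21, 27 and 9 in KIKO libraries. Its normalized CPM were 3.98 and 9.10 in WT and 16.6, 20.9 and 9.13 in KIKO libraries, so the lowest KIKO library and the highest WT library were nearly equal, and its log2 fold change was 1.22 (edgeR's test, standard error 0.78, adjusted p = 1). *Ch25h*, which makes 25-hydroxycholesterol, did not pass the filter on low counts. It had 48 counts in KIKO replicate 2 and between 1 and 10 in the other libraries.

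In the sterol list, *Msmo1* and *Dhcr7*, a reductase of the last steps, were below both WT libraries in every KIKO library, which held for 8.51% of all genes tested. *Dhcr7* had 9.96 and 9.86 normalized CPM in WT and 7.10, 8.50 and 2.03 in KIKO libraries (log2 fold change −0.72, standard error 0.89, edgeR's test, adjusted p = 1). The genes *Osbp*, *Ch25h* and *Dhcr7* were named after their values were seen.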
